A study of Mus musculus with 8 samples.

Results

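The genes described here form the myostatin, activin and follistatin axis, a set of 10 genes taken by name from the 22880 genes counted in mouse soleus. They are the ligand genes Mstn, Gdf11, Inhba and Inhbb, the follistatin family genes Fst, Fstl1 and Fstl3, and the receptor genes Acvr2a, Acvr2b and Acvr1b. All 10 had enough reads to be tested. Whole soleus, a calf muscle rich in slow fibres, was taken for RNA sequencing from 4 control mice (Dnm2 +/+) and 4 Dnm2 wt/K562E mice (Dnm2 +/K562E), all males of 2 months. The labels give the background as C57BL/6 and the study's methods as C57bl/6 J. Dnm2 encodes dynamin 2, a GTPase that cuts membrane vesicles from the cell surface. The mutant mice carry the K562E change on one copy of the endogenous gene, not restricted to a cell type, beside a normal copy. When the allele was made, Cre took out the selection cassette, and a single LoxP site stayed behind in an intron. The mouse numbers are those of the sample titles, and each library comes from the muscle of a separate animal.

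Myostatin is a secreted member of the TGF-beta family that limits the mass of skeletal muscle, and animals that lack it are heavily muscled. Myostatin, its close relative GDF11 and the activins, which are dimers of the proteins of Inhba and Inhbb, bind the type II receptors ACVR2A and ACVR2B, and these recruit type I receptors such as ACVR1B and TGFBR1. The type I receptor then phosphorylates SMAD2 and SMAD3, which enter the nucleus with SMAD4. Follistatin and FSTL3 bind these ligands outside the cell and keep them from their receptors.

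Library depth was between 33407430 and 48832814 counts, and the scaling factors of the TMM method (trimmed mean of M values) were 0.91 to 0.96 for the control group and 1.04 to 1.10 for the mutant group. Values below are normalized CPM, the counts per mouse brought to 1 common library size by this scaling, unless RPKM (the same value per kilobase of exon) is named. Of the 14001 genes tested, 3103 (22.2%) had a higher and 3036 (21.7%) a lower level in the mutant group at an adjusted p under 0.05 (edgeR's quasi-likelihood test with Benjamini-Hochberg adjustment). With library size alone in place of TMM, the split was 5608 higher and 1504 lower. With a log2 fold change of at least 0.58 required as well, the shares were 12.9% higher and 7.85% lower. The median log2 fold change of all tested genes was 0.01. Dnm2 itself had 66.3 ± 4.74 CPM in controls and 73.4 ± 2.43 in Dnm2 wt/K562E mice (SD, n = 4 each; adjusted p = 0.0909), a total that does not separate the alleles. Myh7, the slow myosin that defines this muscle, was at 3694 CPM or more in every mouse.

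Transcripts of several cell types moved with the genotype, and their counts stand beside 22.2% higher and 21.7% lower among all tested genes. Of 7 markers of fibro-adipogenic progenitors, the fibroblast-like cells of muscle, 6 were higher and 1 was lower, and their summed level was 845.5 to 1255 CPM in controls against 1706 to 2169 in mutant mice. All 7 macrophage markers were higher (summed level 87.3 to 162 CPM against 191 to 314). Of 10 fast fibre genes 8 were lower (42518 to 44965 CPM against 25751 to 30722), as were 6 of 7 slow fibre genes (19556 to 23042 against 11340 to 14342). Of 6 genes of embryonic and regenerating fibres 3 were higher (55.0 to 65.3 CPM against 537 to 804), and all 6 genes of denervated fibres were higher (65.0 to 72.9 against 225 to 277). Myog stands in both lists, so these counts and sums are not independent. In mutant mice most of the first sum was Myh3 (271 to 403 CPM) and Myl4 (194 to 301 CPM), and Myh8 did not pass. Of 4 satellite cell markers, Pax7, Myf5 and Calcr were lower and Chodl was higher, and the summed level of all 4 (35.3 to 62.6 CPM against 128 to 160) follows Chodl, which alone had 24.6 to 47.5 CPM in controls and 125 to 157 in mutant mice. All 6 tendon cell markers were higher (549.95 to 1068 against 3084 to 3950). Most of this sum was Thbs4, with 256.5 to 487.5 CPM in controls and 2137 to 2741 in mutant mice (log2 fold change 2.69). The others had log2 fold changes of 0.98 to 1.42. All 5 endothelial markers were lower (892 to 934 against 640 to 726), and of 5 markers of smooth muscle cells and pericytes 1 was higher and 3 lower (1511 to 1671 against 1112 to 1318). None of 5 adipocyte markers passed (88.1 to 471 against 149 to 264), and 1 of 6 Schwann cell markers was lower (246 to 283 against 239 to 289). In whole muscle, fewer cells of a type and less RNA per cell cannot be told apart.

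Within the axis, 4 of the 10 genes were higher in Dnm2 wt/K562E mice (Gdf11, Inhba, Fst and Fstl1), beside 22.2% of all genes, and 1 was lower (Mstn), beside 21.7%. The same 5 genes also passed the fold threshold and were the 5 whose values did not overlap between the genotypes, while 41.2% of all tested genes did not overlap. The 3 receptors, Fstl3 and Inhbb did not pass. The median log2 fold change of the 10 genes was 0.02, against 0.01 over all tested genes. Without control 4, whose Mstn level stood apart, the counts were again 4 higher and 1 lower.

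**Figure D1:**
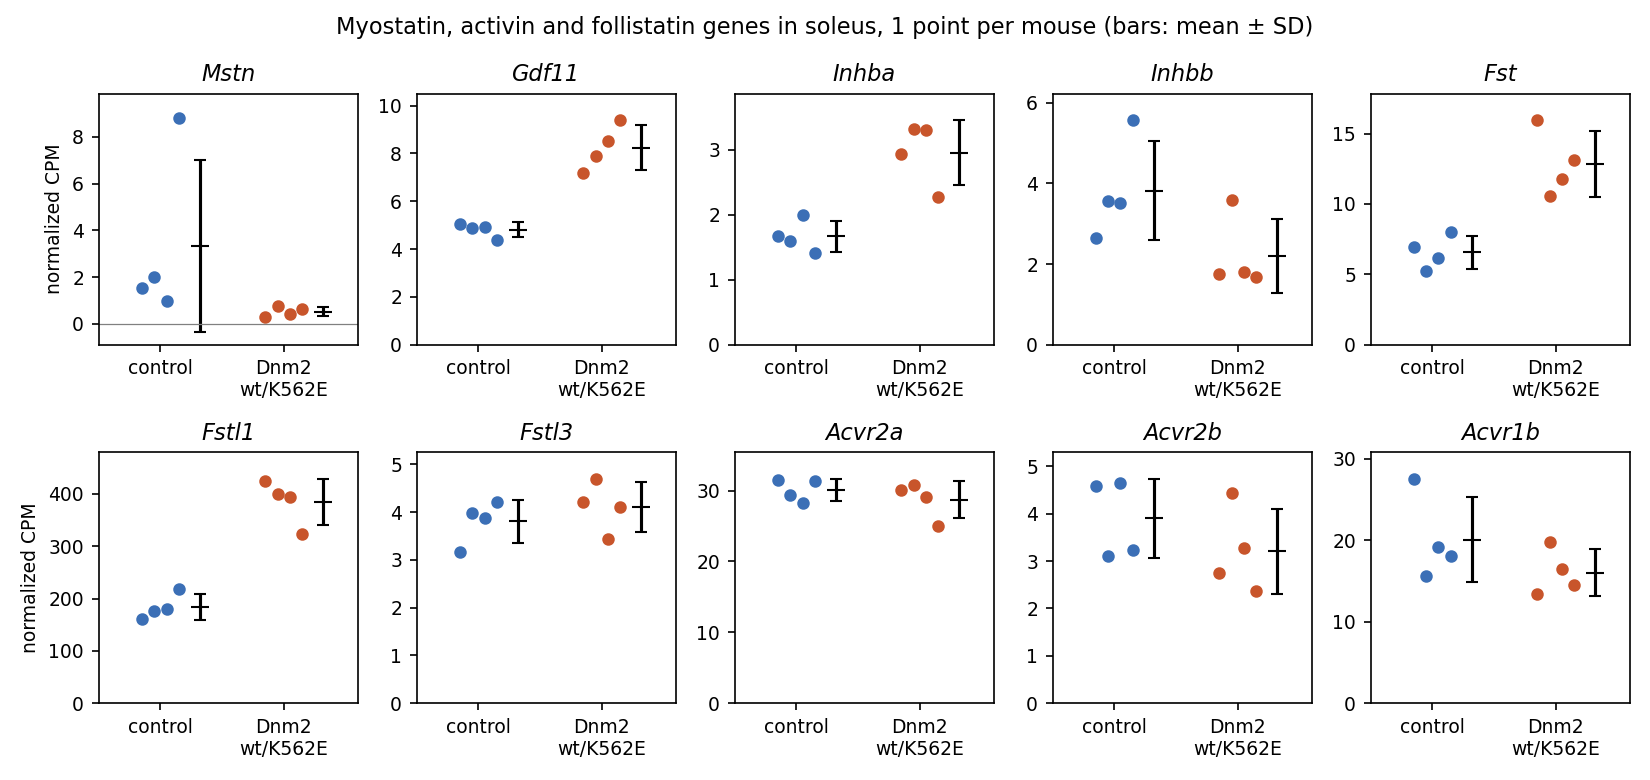
Normalized CPM of the 10 genes (vertical axes, each with its own scale) in 4 control mice (blue) and 4 Dnm2 wt/K562E mice (orange), with 1 point per mouse and the mean ± SD of each group in black. The groups are apart for Mstn, Gdf11, Inhba, Fst and Fstl1, control 4 lies at 8.80 CPM for Mstn, and mutant mouse 2 lies among the controls for Inhbb.

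Mstn (ENSMUSG00000026100, chromosome 1, 53061640 to 53068079, plus strand, GRCm38) and Gdf11 (ENSMUSG00000025352, chromosome 10, 128882295 to 128891718, minus strand) encode proteins so alike that antibodies and binding proteins often take both. Their transcripts can be counted apart, since no 31-base stretch of Mstn and 0.0248% of those of Gdf11 occurred in the transcripts of another gene, which for Gdf11 was Slc4a4. A link between upstream sequence and the change of either gene was not tested. The 250 bases upstream of the annotated starts of both genes are shown as a description. They come from RefSeq (GRCm38.p6), read 5′ to 3′ on the strand of the gene, at chr1:53061390-53061639 for Mstn and chr10:128891719-128891968 for Gdf11. Capitals mark every E-box, the letters CANNTG, which read the same way on both strands and are the core bound by muscle regulatory factors such as MyoD.
Mstn: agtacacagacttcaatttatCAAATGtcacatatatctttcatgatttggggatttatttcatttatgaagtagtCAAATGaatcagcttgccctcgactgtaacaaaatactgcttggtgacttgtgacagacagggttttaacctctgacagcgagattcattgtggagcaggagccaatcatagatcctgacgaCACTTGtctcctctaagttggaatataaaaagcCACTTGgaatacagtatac
Gdf11: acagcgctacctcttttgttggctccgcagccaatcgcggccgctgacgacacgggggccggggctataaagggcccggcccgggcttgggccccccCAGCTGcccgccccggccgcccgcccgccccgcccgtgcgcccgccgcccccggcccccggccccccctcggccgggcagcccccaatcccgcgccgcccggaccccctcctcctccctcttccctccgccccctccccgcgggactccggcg
The Mstn window held 4 E-boxes and the Gdf11 window 1. Among 32851 RefSeq mouse promoter windows of that length, 66.2% held at least 1 E-box and 3.84% held at least 4. GC content was 38.4% for Mstn, lower than in all but 9.05% of the windows, and 81.2% for Gdf11, where the median window had 52.4%. Of the other members with an entry, Inhba had 43.2% GC and no E-box. GC content was 82.0% for Acvr2a, 78.8% for Acvr1b, 72.8% for Acvr2b, 71.2% for Fstl3 and 68.0% for both Fstl1 and Inhbb. Fstl3 had 3 E-boxes, Acvr1b had 1, and Inhbb, Fstl1, Acvr2a and Acvr2b had none. A TATA box (TATAAA on either strand) occurred once each in the windows of Mstn, Gdf11, Fstl3 and Inhba, against 12.4% of all windows. A CAGA box (CAGACA on either strand), the core of the Smad3 site, occurred once each in the windows of Mstn and Fstl3 and in no other of the 9, against 17.1% of all windows. A letter match is a description of the sequence and not a binding site.

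Mstn, made mainly by fast fibres in adult muscle, had 1.52, 2.02, 0.99 and 8.80 CPM in controls 1 to 4 and 0.30, 0.74, 0.41 and 0.65 CPM in Dnm2 wt/K562E mice 1 to 4. Every mutant mouse was below every control, and control 4 was 4.36 times the next control. These levels rest on 44 to 299 reads in controls and 11 to 32 reads in mutant mice, so that counting error is large in the mutant group. The mean was 3.33 ± 3.67 CPM in controls and 0.524 ± 0.207 in Dnm2 wt/K562E mice (SD, n = 4 each), and the log2 fold change was -2.65 (SE 0.67, adjusted p = 0.00857), or 6.26-fold lower. Without control 4 the remaining controls averaged 1.51 ± 0.517 CPM (n = 3), and the log2 fold change was -1.51 (SE 0.39, adjusted p = 0.0101), or 2.86-fold lower. The direction thus did not depend on that mouse, but the size did.

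Myh4, Pvalb and Actn3, fast fibre genes given beside Mstn here, were also lower in Dnm2 wt/K562E mice and highest in control 4. Of the other listed fast fibre genes, Atp2a1 was highest in control 4 as well (7886.9 CPM). Control 4 was instead the lowest control for Myh1 (4026.5 CPM), Myh2 (9179.3), Tnni2 (4691.5) and Tnnc2 (3887.1). It was neither for Tnnt3 and Mylpf, and Myh1 and Mylpf did not pass between the genotypes. Myh4, the myosin of type IIB fibres, had 426, 372, 163 and 3134 CPM in controls 1 to 4 and 34.9, 34.0, 45.9 and 50.9 in Dnm2 wt/K562E mice 1 to 4 (log2 fold change -4.63, adjusted p = 0.00119). Control 4 was highest for both genes and control 3 lowest among controls for both. Pvalb, the calcium buffer parvalbumin, had 342, 407, 469 and 946 CPM in controls and 23.5, 76.9, 68.9 and 44.0 in Dnm2 wt/K562E mice (log2 fold change -3.34), and Actn3, the fast fibre Z-disc protein, had 236, 294, 389 and 758 against 144, 173, 150 and 153 (log2 fold change -1.43). Both were highest in control 4, and neither overlapped between the genotypes. Myosin genes are near-identical in parts, so the split of reads among them is uncertain. Per 1000 reads of Myh4 there were 3.56, 5.44, 6.05 and 2.81 reads of Mstn in controls and 8.55, 21.9, 8.84 and 12.8 in Dnm2 wt/K562E mice. Relative to Myh4, Mstn was thus higher in each mutant mouse than in any control, the reverse of its order in CPM. The adipocyte gene Adipoq also ordered the controls as Mstn did, with 24.4, 43.1, 11.3 and 66.6 CPM, but it did not separate the genotypes (32.6, 26.6, 18.0 and 26.5 CPM in Dnm2 wt/K562E mice). The part of fibre type or of adipose tissue in the difference of Mstn was not tested.

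**Figure D2:**
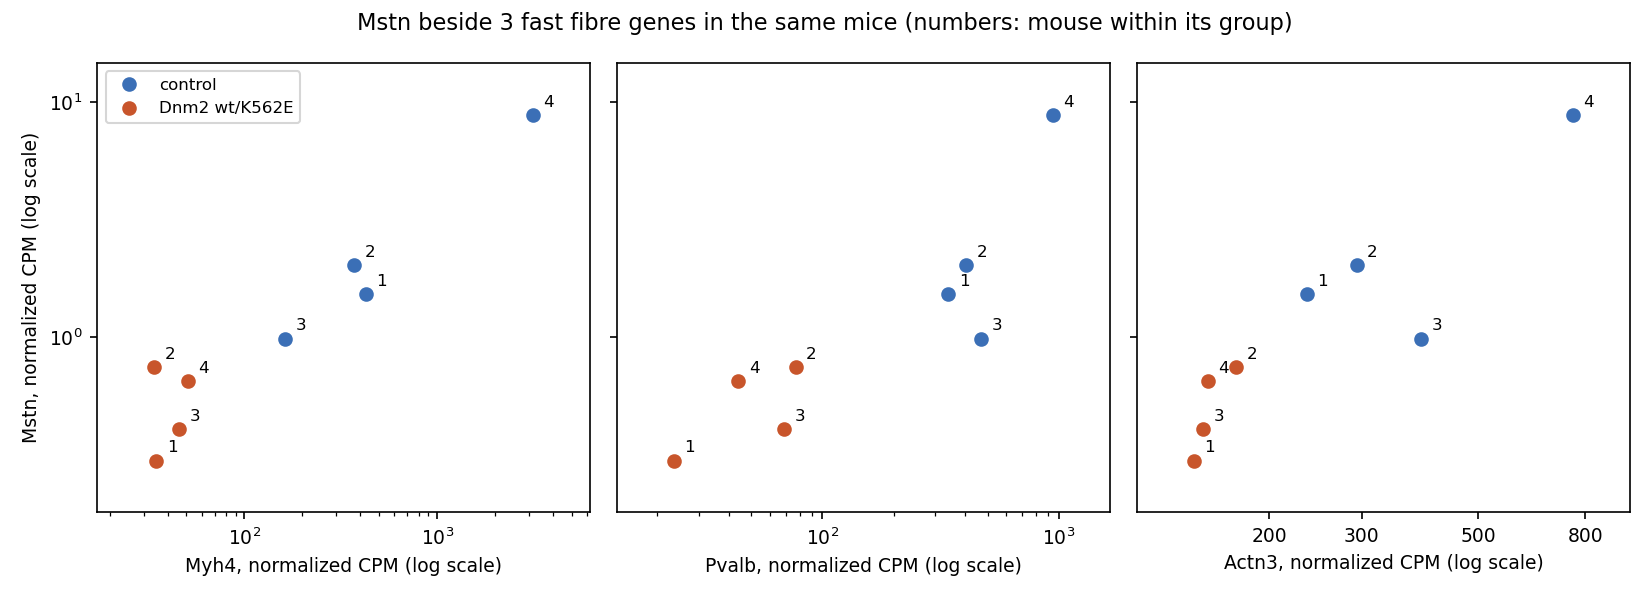
Mstn (vertical axis, normalized CPM, log scale) against Myh4, Pvalb and Actn3 (horizontal axes, normalized CPM, log scale), with 1 point per mouse, controls in blue and Dnm2 wt/K562E mice in orange, numbered within each group. Control 4 is highest for all 4 genes and the mutant mice lie at the low end of each panel.

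Over the 8 mice, the genes whose centred log2 CPM lay closest to that of Mstn, among 12633 genes with a mean of at least 1 CPM, were Cib2, Scd3 and Plcd4, with root mean square differences of 0.660, 0.662 and 0.675, where the spread of Mstn itself was 1.37. Cib2, which encodes a calcium and integrin binding protein, had 10.3, 14.8, 12.1 and 22.7 CPM in controls and 3.56, 3.65, 2.48 and 3.00 in Dnm2 wt/K562E mice. Cib2 was picked for its likeness to Mstn in these mice, so shared features follow from the choice. Control 4 was the highest and no mutant mouse reached a control. Myh4 ranked 96 in this order, with a difference of 0.940.

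Gdf11, best known for patterning the axial skeleton, had 5.06, 4.87, 4.93 and 4.36 CPM in controls 1 to 4 and 7.17, 7.90, 8.51 and 9.38 CPM in Dnm2 wt/K562E mice 1 to 4. The controls lay close together, and the lowest mutant mouse was above all of them. The mean rose from 4.80 ± 0.309 to 8.24 ± 0.936 CPM (SD, n = 4 each), and the log2 fold change was 0.78 (SE 0.12, adjusted p = 3.66e-04). Per kilobase of exon, Gdf11 stood at 2.22, 1.61, 3.33 and 0.33 times the level of Mstn in controls 1 to 4 and at 16.0, 7.08, 14.0 and 9.63 times in Dnm2 wt/K562E mice. Control 4 was the only mouse with more Mstn than Gdf11, and the ratio was higher in each mutant mouse than in any control.

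Inhba (chromosome 13, 16011851 to 16031621, plus strand) encodes the beta A subunit, which forms activin A. Its level was 1.67, 1.6, 1.99 and 1.41 CPM in controls 1 to 4 and 2.93, 3.32, 3.32 and 2.27 CPM in Dnm2 wt/K562E mice 1 to 4. The groups did not overlap, with mutant mouse 4 nearest to the controls. The log2 fold change was 0.82 (SE 0.19, adjusted p = 0.00581), from counts of 48 to 143 reads per mouse.

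Inhbb (chromosome 1, 119415465 to 119422248, minus strand) encodes the beta B subunit of activin B. It had 2.65, 3.56, 3.52 and 5.56 CPM in controls 1 to 4 and 1.77, 3.58, 1.81 and 1.68 CPM in Dnm2 wt/K562E mice 1 to 4. Mutant mice 1, 3 and 4 were below all controls, and mutant mouse 2 lay among them. The log2 fold change of -0.78 (SE 0.30) missed the threshold (adjusted p = 0.0517). Without mutant mouse 2 it was -1.12 and passed (adjusted p = 0.00679), and without control 1 it passed as well (adjusted p = 0.0227). With all 8 mice it also passed under the exact test of edgeR (adjusted p = 0.0264), DESeq2 (0.0217), median ratio factors (0.0495) and no filter on low counts (0.0477). The call for Inhbb therefore turned on both the method and single mice, whereas Inhba passed in every one of the 16 alternatives run. Inha, the alpha subunit that turns beta subunits into inhibins, was higher in Dnm2 wt/K562E mice, with 2.95, 3.00, 1.90 and 2.06 CPM against 3.99, 3.42, 4.27 and 4.05 (log2 fold change 0.67, adjusted p = 0.0141). Of the other listed ligands and subunits, Inhbc and Inhbe had no read in any mouse, and Nodal and Gdf3 were below the filter on low counts.

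Fst (chromosome 13, 114452290 to 114458951, minus strand) encodes follistatin, which binds activins almost irreversibly and also holds myostatin and GDF11. It had 6.94, 5.23, 6.16 and 7.98 CPM in controls 1 to 4 and 15.9, 10.6, 11.8 and 13.1 CPM in Dnm2 wt/K562E mice 1 to 4. No mutant mouse came down to the control range. The mean rose 1.95-fold, from 6.58 ± 1.17 to 12.8 ± 2.32 CPM (SD, n = 4 each), and the log2 fold change was 0.97 (SE 0.16, adjusted p = 5.79e-04). The genes nearest to Fst in their pattern over the 8 mice were Ifi30, Abca8a and Adcy7, with root mean square differences of 0.103, 0.104 and 0.110 where the spread of Fst itself was 0.529. Ifi30, a lysosomal thiol reductase of antigen-presenting cells, had 10.3, 7.42, 7.77 and 9.98 CPM in controls and 20.02, 14.0, 13.9 and 18.2 in Dnm2 wt/K562E mice. Ifi30 was picked for its likeness to Fst in these mice, so a similar order follows from the choice. Controls 1 and 4 were the higher controls and mutant mouse 1 was the highest of all.

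Fstl1 (chromosome 16, 37776873 to 37836514, plus strand), a secreted glycoprotein of connective tissue cells that carries a follistatin domain, was the most abundant of the 10 genes. Its level was 162, 176, 181 and 219 CPM in controls 1 to 4 and 425, 399, 393 and 323 CPM in Dnm2 wt/K562E mice 1 to 4. The groups were well apart, although 8.45% of its 31-base stretches also occurred in other transcripts. The log2 fold change was 1.06 (SE 0.11, adjusted p = 2.21e-05). Pdgfra, the receptor that marks fibro-adipogenic progenitors, had 41.6, 41.9, 47.4 and 60.9 CPM in controls and 105, 121, 98.2 and 91.4 in Dnm2 wt/K562E mice (log2 fold change 1.11), and the median log2 fold change of the 7 markers of these cells was 0.98. For both Fstl1 and Pdgfra, control 4 was the highest control and mutant mouse 4 the lowest mutant. Among the other progenitor markers, Dpp4, Dpt, Lum and Cd34 shared this order, and Ly6a and Col1a1 did not. It was not particular to these cells, since the macrophage genes Cd68, Csf1r, Mrc1, C1qa and Ptprc shared it too. Adgre1 and Itgam, the other macrophage markers, did not. None of the 7 progenitor markers was at 0 in any mouse. The part of either cell type in the differences of Fstl1 and Fst was not tested.

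Fstl3 (chromosome 10, 79777272 to 79782630, plus strand), which binds myostatin and activins in blood and tissue, had 3.16, 3.98, 3.87 and 4.21 CPM in controls 1 to 4 and 4.21, 4.70, 3.43 and 4.11 CPM in Dnm2 wt/K562E mice. The groups overlapped, and no difference was detected (log2 fold change 0.11, SE 0.15, adjusted p = 0.583). Its exons overlap those of Prss57 on the other strand over 1157 bases, but Prss57 had between 0 and 10 reads per mouse.

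The receptor genes overlapped between the genotypes. Acvr2a (chromosome 2, 48814109 to 48903269, plus strand), a type II receptor, had 31.5, 29.3, 28.3 and 31.3 CPM in controls 1 to 4 and 30.1, 30.8, 29.0 and 25.0 CPM in Dnm2 wt/K562E mice (log2 fold change -0.07, SE 0.08, adjusted p = 0.519). The sign of this small difference turned to 0.15 with library size alone, a scaling that moved the median of all genes to 0.22. Its exons overlap those of Orc4 on the other strand over 446 bases, and Orc4 had 716 to 1189 reads per mouse, about as many as Acvr2a itself (924 to 1324). How many reads of the overlap were counted for Acvr2a was not tested. Acvr2b (chromosome 9, 119402118 to 119434995, plus strand), the type II receptor to which myostatin binds most tightly, had 4.59, 3.12, 4.66 and 3.24 CPM in controls and 2.74, 4.44, 3.27 and 2.38 CPM in Dnm2 wt/K562E mice (log2 fold change -0.28, SE 0.22, adjusted p = 0.336). Acvr1b (chromosome 15, 101174067 to 101213684, plus strand), the type I receptor of activins, had 27.5, 15.5, 19.1 and 18.1 CPM in controls and 13.3, 19.8, 16.5 and 14.5 CPM in Dnm2 wt/K562E mice (log2 fold change -0.32, SE 0.17, adjusted p = 0.156). Neither Acvr2b nor Acvr1b reached the threshold in any of the 16 alternatives. The log2 fold change of Acvr1b ran from -0.44 to -0.14 when single mice were left out. The value of -0.14 was the one without control 1, the highest mouse for this gene. A p above the threshold does not show equal levels. The SE of Acvr2a leaves room for small changes in either direction. Those of Acvr2b and Acvr1b also leave room for a decrease beyond the log2 fold threshold of 0.58.

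Per kilobase of exon, the order of the mean levels in controls was Fstl1 (37.5 RPKM), Acvr2a (5.29), Acvr1b (4.54), Fstl3 (1.56), Fst (1.43), Mstn (1.23), Gdf11 (1.18), Acvr2b (0.993), Inhbb (0.899) and Inhba (0.261). In Dnm2 wt/K562E mice it was Fstl1 (78.4 RPKM), Acvr2a (5.05), Acvr1b (3.63), Fst (2.80), Gdf11 (2.03), Fstl3 (1.68), Acvr2b (0.816), Inhbb (0.519), Inhba (0.463) and Mstn (0.194). Mstn went from place 6 to place 10, but place 6 rested on control 4: without that mouse its control mean was 0.558 RPKM, at place 9, between Inhbb and Inhba. Between neighbours in these orders, the ranges over the 4 mice were apart only from Fstl1 to Acvr2a, from Acvr1b to Fstl3 and from Inhbb to Inhba in controls, and from Fstl1 to Acvr2a, from Fstl3 to Acvr2b and from Inhba to Mstn in Dnm2 wt/K562E mice. In the middle of the control order, from Fstl3 to Inhbb, the ranges of neighbours overlapped.

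**Figure D3:**
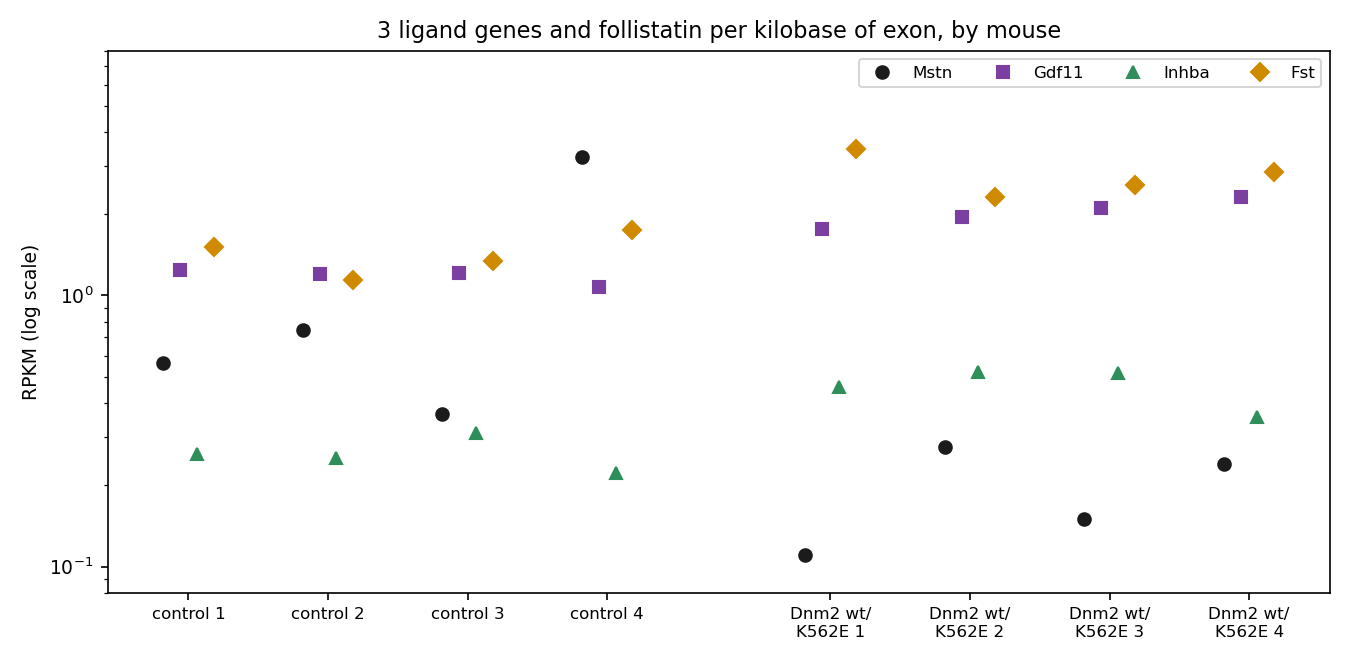
RPKM (vertical axis, log scale) of Mstn, Gdf11, Inhba and Fst in each of the 8 mice (horizontal axis), 1 symbol per gene. Mstn is below Inhba in all 4 Dnm2 wt/K562E mice and above it in all 4 controls, while Gdf11 and Fst are higher in the mutant mice.

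The ratio of a ligand to its antagonist describes how the transcripts of both sides moved in the same muscle. The RPKM ratio of Mstn to Fst was 0.371, 0.655, 0.271 and 1.87 in controls 1 to 4 and 0.0318, 0.120, 0.0585 and 0.0838 in Dnm2 wt/K562E mice 1 to 4. The groups did not overlap, and the geometric mean was 9.03-fold lower in mutant mice, with a log2 difference of -3.17 that was -2.62 without control 4. The ratio of Mstn to Fstl3 was 0.435, 0.459, 0.230 and 1.89 in controls and 0.0641, 0.143, 0.107 and 0.143 in mutant mice, a log2 difference of -2.32 that was -1.72 without control 4. The ratios with activin A in place of myostatin were as follows. The ratio of Inhba to Fst was 0.173, 0.220, 0.232 and 0.127 in controls and 0.132, 0.226, 0.202 and 0.124 in mutant mice, so the groups overlapped and the log2 difference was -0.15. The ratio of Inhba to Fstl3 was 0.202, 0.154, 0.197 and 0.128 in controls and 0.267, 0.271, 0.369 and 0.211 in mutant mice, 1.64-fold higher with no overlap. These ratios combine genes with known results, are given without a test, and concern transcripts and not proteins.

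Of 42 other genes of the pathway, listed by their roles, 33 were tested. The mutant group had more of 14 and less of 4, while 15 did not pass and 16 did not overlap between the genotypes, beside 22.2% higher, 21.7% lower and 41.2% without overlap among all tested genes. The median log2 fold change was 0.29. With the fold threshold 10 were higher and 2 lower, beside 12.9% and 7.85% of all tested genes.

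**Figure D4:**
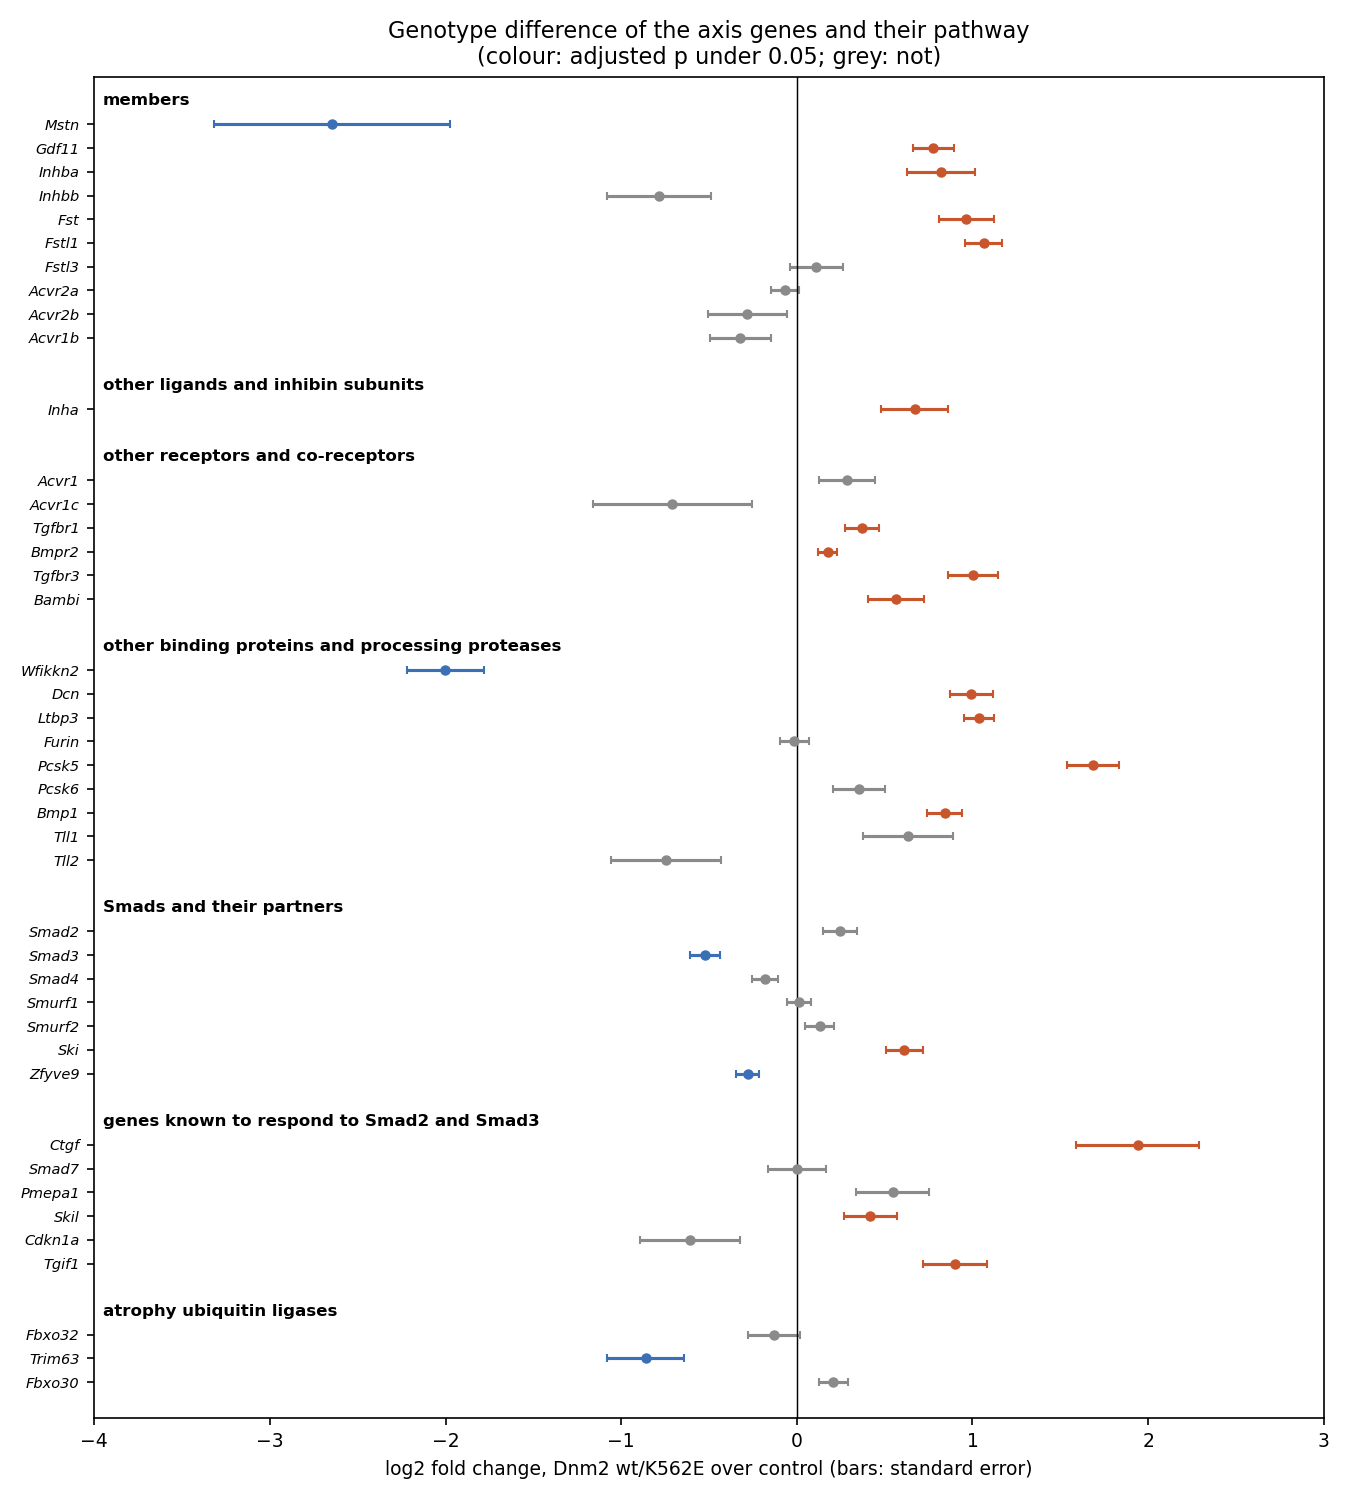
Log2 fold change of Dnm2 wt/K562E over control mice (horizontal axis, bars are the standard error) for the 10 axis genes and tested genes of the pathway, grouped by role, with orange for higher and blue for lower at an adjusted p under 0.05 and grey for the rest. Mstn and Wfikkn2 lie farthest to the left, at -2.65 and -2.0, and Ctgf and Pcsk5 farthest to the right.

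Among binding proteins and proteases, 9 of 12 were tested, 4 were higher and 1 was lower, beside 22.2% and 21.7% of all tested genes. The lower one, Wfikkn2, encodes a protease inhibitor domain protein that binds myostatin and GDF11 with high affinity. It had 6.88, 7.42, 11.6 and 6.95 CPM in controls 1 to 4 and 2.12, 2.46, 2.19 and 1.43 CPM in Dnm2 wt/K562E mice 1 to 4. The groups were far apart, and control 4 was not set apart here as it was for Mstn. The log2 fold change of Wfikkn2 was -2.0 (SE 0.22, adjusted p = 4.25e-05). Wfikkn1, its relative, was below the filter, with 0 to 0.505 CPM. Pcsk5, a proprotein convertase that activates GDF11, had 11.5, 10.4, 8.62 and 12.5 CPM in controls and 43.9, 34.7, 30.6 and 28.5 CPM in Dnm2 wt/K562E mice (log2 fold change 1.69, adjusted p = 1.01e-05). The general convertase Furin showed no detectable difference (log2 fold change -0.01, SE 0.08). Bmp1, a tolloid protease that cuts the myostatin propeptide and so frees the ligand, was higher by 0.84 on the log2 scale (adjusted p = 7.55e-05), with 36.0 to 49.3 CPM in controls against 66.6 to 75.9 in mutant mice. Its relatives Tll1 (log2 fold change 0.63) and Tll2 (-0.75) did not pass. Ltbp3, which holds latent ligand in the matrix, and the proteoglycan Dcn, which binds myostatin, had log2 fold changes of 1.03 and 0.99 (adjusted p = 6.22e-06 and 9.69e-05). The count of Ltbp3 may include reads of an overlapping gene, and Dcn is also a gene of fibroblast-like cells, whose marker levels are given above.

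Of the other receptors and co-receptors, 6 of 7 were tested and 4 were higher, beside 22.2% of all tested genes. Tgfbr3, or betaglycan, which presents inhibin and TGF-beta to their receptors, had 71.4, 48.0, 52.4 and 57.6 CPM in controls and 105, 133, 129 and 92.2 CPM in Dnm2 wt/K562E mice (log2 fold change 1.00, adjusted p = 2.15e-04). Its groups did not overlap. Tgfbr1, another type I receptor that myostatin uses, was higher by a log2 fold change of 0.37 (adjusted p = 0.00858), the pseudoreceptor gene Bambi by 0.57 (adjusted p = 0.0146) and the BMP receptor gene Bmpr2 by 0.18 (adjusted p = 0.0208). The difference of Bmpr2 passed in 10 of 16 alternatives and that of Bambi in 15. Acvr1 (0.29) and Acvr1c (-0.71) did not pass. Acvr1c, a type I receptor of fat cells, had 2.71, 5.29, 1.25 and 7.42 CPM in controls, in the same order as Adipoq, and 2.77, 3.58, 1.72 and 2.05 in Dnm2 wt/K562E mice.

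Of 7 Smads and partners, 2 were lower and 1 was higher, beside 21.7% lower and 22.2% higher among all tested genes. Smad3, the transducer that binds DNA itself, had 89.1, 91.7, 103 and 80.4 CPM in controls and 67.5, 61.0, 56.9 and 67.8 CPM in Dnm2 wt/K562E mice (log2 fold change -0.52, adjusted p = 6.08e-04). All mutant mice were below all controls. Zfyve9, which anchors Smads near the receptor, was lower by a log2 fold change of -0.28 (adjusted p = 0.00541) and overlaps 3110021N24Rik on the other strand over 706 bases. With library size alone it did not pass. Ski, a corepressor of Smad targets, was higher by 0.61 (adjusted p = 7.52e-04). Smad2 (0.25) and Smad4 (-0.18) did not pass, nor did Smurf1 and Smurf2.

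Of 7 genes known to respond to Smad2 and Smad3, 4 were higher, beside 22.2% of all tested genes. Of the 7, 2 did not overlap between the genotypes, beside 41.2% of all tested genes. Ctgf, a matricellular protein gene, had 176, 115, 147 and 139 CPM in controls and 739, 188, 506 and 783 CPM in Dnm2 wt/K562E mice (log2 fold change 1.94, adjusted p = 0.00117). Mutant mouse 2 stayed near the controls. The corepressor genes Tgif1 (0.90, adjusted p = 0.00231) and Skil (0.42, adjusted p = 0.0454) were also higher, the latter in 8 of 16 alternatives. For Skil, mutant mouse 2 (23.6 CPM) was below every control (26.0 to 28.1 CPM). The inhibitory Smad7 was at 8.73, 9.92, 11.2 and 9.24 CPM in controls and 9.40, 9.20, 7.30 and 13.3 in mutant mice, with a log2 fold change of 0.00 (SE 0.17). Pmepa1 (0.55) and Cdkn1a (-0.61) did not pass. These genes also respond to other signals.

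Of the 3 ubiquitin ligase genes of muscle atrophy, Trim63 (MuRF1) was lower in Dnm2 wt/K562E mice, with 137, 309, 268 and 227 CPM in controls and 127, 108, 114 and 170 in mutant mice (log2 fold change -0.86, adjusted p = 0.00873). Control 1 lay within the range of the mutant mice. Fbxo32 (atrogin-1) showed no detectable difference (log2 fold change -0.13, SE 0.15), and neither did Fbxo30 pass (0.21, adjusted p = 0.0587).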

How the data were processed

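The authors trimmed the reads with Trimmomatic 0.33, aligned them with STAR 2.5.1b to GRCm38.p5 and counted them per Ensembl gene with featureCounts, and they deposited raw counts, 1 file per mouse. A read over several genes counted for each, and use of strand is not given in the sources used here. The study's methods describe poly A enrichment and the labels a total RNA kit. The 10 members and the other lists were chosen with earlier results of these data known. All 8 mice were fitted without covariates in edgeR 4.0.16 (R 4.3.3) after filterByExpr (minimum count 10, minimum total 15) and TMM, with the quasi-likelihood F-test and Benjamini-Hochberg adjustment over 14001 genes. The standard error is the one implied by F. Symbols and exon lengths came from GENCODE M21, the same build, which matched 22647 of 22880 gene IDs. One listed gene, Gdf1, was not analysed here, and 1 pathway gene that is counted is not reported here by name. Named genes were the members, the pathway genes that passed, the 3 genes most like Mstn and Fst in pattern, and markers. Promoter entries were found for 9 of the 10 members. Any 2 mice of a genotype differed by more than sampling noise. The numbers in the labels did not pair the mice. The calls and the fold changes of the members were also computed with DESeq2 1.42.0, with an exact test in edgeR, with scaling by median ratios or by library size alone, with 2 other filters (none, and 10 counts in every mouse), with replicate blocks and without each mouse in turn.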

Additional observations from a re-analysis of the deposited data

Results flagged for a closer look

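In 94 groups of 4 values (members, tested pathway genes and ratios in each genotype), 6 held a mouse far from the other 3 by Dixon's test. The limit is set so that chance gives about 1 in 20 for independent groups of normal values, and the share here was near that. The groups share mice and genes, so this does not show whether any single flag arose by chance. Control 4 stood apart for Mstn with 8.80 CPM and, with it, for the RPKM ratio of Mstn to Fstl3, at 1.89. The same mouse stood apart for Bmp1 at 49.3 CPM. Control 3 stood apart for Wfikkn2 at 11.6 CPM, and control 1 for Ski at 74.9 CPM, below the other controls. Mutant mouse 2 stood apart for Inhbb at 3.58 CPM. The direction of the genotype difference of Mstn, Bmp1, Wfikkn2 and Ski held without the mouse in question.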

How the results depend on the processing

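Mstn, Gdf11, Inhba, Fst and Fstl1 kept their direction and passed in all 16 alternatives, and of 160 comparisons of a member's fold change 1 reversed: Acvr2a was at 0.146 with library size alone. That scaling called 5608 genes higher and 1504 lower over all genes and 22 pathway genes higher. With the fold threshold as well, 1806 genes were higher and 1099 lower, and 2 pathway genes were lower. The exact test, DESeq2, median ratio factors and no filter each called 2 members lower, the added one being Inhbb (adjusted p = 0.0264, 0.0217, 0.0495 and 0.0477). The count of members called lower was 1 to 2 when single mice were left out. For Mstn the log2 fold change ran from -2.96 to -1.51 when single mice were left out. Mice with the same number in the labels did not deviate together, and the replicate block by title numbers gave 2608 genes higher and 2523 lower, with 4 members higher and 1 lower. Mstn was at -2.24 with this block (adjusted p = 0.00756). The block changed no call of a member, but the pathway genes Bmpr2, Bambi and Skil no longer passed (adjusted p = 0.0727, 0.058 and 0.0619), which left 11 pathway genes higher. Depth limits Mstn most, with 11 reads in 1 mutant mouse. With longest transcripts in place of exon unions, the ratios to Fst and Fstl3 changed in level by the same factor in every mouse. Their difference between genotypes could therefore not change, so this setting is no check of it.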
